A study of Mus musculus with 5 samples.

Results

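The 10 genes described here act where a cell decides between survival and apoptosis: the death receptor genes Fas and Tnfrsf10b, the genes Casp8 and Cflar of the complex that these receptors build, and the BCL2 family genes Bcl2l11, Bcl2, Bcl2l1, Mcl1, Bax and Bak1. They were chosen by gene symbol, with no measured value in the rule, but with earlier results of these data known. All 10 were among the 17923 genes listed in at least 1 library. All 10 also passed the filter on low counts, which left 13240 genes for the test between groups.

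Killer cells reach this machinery by separate routes. Fas ligand and TRAIL on natural killer (NK) and T cells bind Fas and the TRAIL receptor on the target, the receptors recruit caspase-8 through an adaptor, and the caspase-8-like protein FLIP, encoded by Cflar, limits its activation. Caspase-8 also cleaves Bid and so acts on the mitochondria. There, BH3-only proteins such as Bim (Bcl2l11) bind the survival proteins Bcl-2, Bcl-xL (Bcl2l1) and Mcl-1, and Bax and Bak form the pores that release cytochrome c. Granzymes, released by killer cells, are the other route.

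RNA was sequenced from 5 libraries of cell lines that had been established from BRAFV600E thyroid tumors of mice. The study asked how tumor growth from such cells depends on β-catenin, the product of Ctnnb1, and used RNA-seq to compare the expression of lines with and without it. Of the 5 libraries, 2 were labelled BVE-Ctnnb1wt, with BRAFV600E alone, and 3 were labelled BVE-Ctnnb1null, with BRAFV600E and a deletion of CTNNB1. Both wt libraries carried the line name BVE at passage 20. Thyroid-stimulating hormone (TSH) was labelled absent for replicate 1 and present for replicate 2. The null libraries carried the line names BVECTN_4 at passage 8 without TSH (replicate 1), BVECTN_4A at passage 11 (replicate 2) and BVECTN_5 at passage 7 (replicate 3), and TSH was not stated for replicates 2 and 3. The culture protocol, in contrast, gives medium with 4 mU/mL bovine TSH, and a history of about 25 (wt) or 20 (null) passages. Genotype, line and passage therefore cannot be told apart, and p-values measure only the spread between these libraries.

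The level of a gene is given below as FPKM, which the authors scaled to transcript length and library total, and which allows genes to be set side by side. Depth was similar in all libraries. The estimated counts totalled 30432737 and 30713079 in wt replicates 1 and 2, and 29929677, 29360002 and 29415980 in null replicates 1, 2 and 3. Composition differed. The 10 most counted genes of each library took 14.3% and 15.0% of counts in the wt and 6.9%, 8.0% and 7.9% in the null libraries. TMM factors, by which edgeR scales libraries, were 0.8417 and 0.735 in the wt and 1.085, 1.222 and 1.219 in the null libraries. FPKM carries no such scaling, so ratios of null to wt are larger by FPKM than with it. The files list a transcript from an FPKM of 0.01 upward, so a value given as 0 below means that it was not on that library's list.

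Ctnnb1 RNA was not lower in the libraries labelled null, and so did not follow the labels. Its FPKM was 59.29 and 73.75 in the wt and 124.58, 196.26 and 117.82 in the libraries labelled null. The null libraries were thus all above both wt libraries by FPKM, while the groups overlapped in CPM after TMM, edgeR's library scaling. Its log2 fold change (null against wt) was 0.55 with a standard error of 0.44 (adjusted p = 0.517 by the quasi-likelihood test of edgeR, Benjamini-Hochberg adjusted). Which exons were deleted is not given in the sources used here, and a transcript can remain after exons are removed, so the labels were kept but were not checked by this gene. Every direction below is for libraries labelled null against libraries labelled wt.

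The label of thyroid epithelial cells was set against marker genes. Of 13 thyroid follicular markers, 9 stayed under an FPKM of 1 in every library, and the thyroglobulin gene Tg, the defining product of follicular cells, was at 0.80 and 0.86 in the wt and 0.04, 0.51 and 0.34 in the null libraries. The thyroid transcription factor gene Nkx2-1 had the highest mean of the list over the libraries, with FPKM of 9.21 and 15.02 in the wt and 9.26, 34.83 and 0.26 in the null libraries. Summed over the list, FPKM was 15.28, 20.63, 35.2, 68.54 and 4.86 in the same order. Pax8, another thyroid transcription factor gene, was at 0.40 and 0.17 in the wt and 18.15, 12.78 and 2.56 in the null libraries. The fitted log2 value was 4.75 with a standard error of 1.09 (unadjusted p = 0.00368, adjusted p = 0.18, edgeR quasi-likelihood, Benjamini-Hochberg, and DESeq2 adjusted p = 7.72e-05), and 4.76 with the length-dependent offsets described below. The null lines also differed among themselves in epithelial character: the E-cadherin gene Cdh1 was at 1.94 and 1.62 in the wt libraries, and at 135.74, 0 and 20.92 in null replicates 1, 2 and 3. The 10 epithelial markers summed to 1098 and 1774 in the wt and 13380, 705.8 and 1421 in the null libraries. Krt8 was the most abundant of them in the wt libraries, with 634.39 and 1103.53, and Krt7 in null replicates 1 and 3, with 5130.95 and 461.30. The 12 mesenchymal and fibroblast markers, led by Vim, summed to 2171 and 4879 in the wt and 117.5, 4995 and 4173 in the null libraries. Null replicate 1 therefore stood apart as the most epithelial library. Within the mesenchymal list the order of the libraries differed from gene to gene. Dcn, Postn and Thy1 were at 84.66, 101.56 and 88.47 in null replicate 3 and under 1 elsewhere, whereas Vim was at 1401.23 there, below 3405.92 in wt replicate 2 and 2864.06 in null replicate 2, and Lum was at 0.02. In bulk RNA, fewer cells of a type and less RNA per cell cannot be told apart. Their part in the values below was not tested.

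Immune cells, which carry much Fas and Bcl2 family RNA of their own, left little trace in these libraries. Of 16 leukocyte markers, 8 were in no library's list, among them the pan-leukocyte gene Ptprc and the T cell gene Cd3e, and 15 had no FPKM of 1 or more. The list summed to FPKM of 1.31 and 2.13 in the wt and 0.35, 0.36 and 1.14 in the null libraries, and its gene with the highest mean over the libraries was Lyz2 with 0.49, 1.39, 0.03, 0.22 and 0.61. All 6 endothelial markers were under 1 in every library.

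A further property separated the groups before any single gene was considered. The mean transcript length, weighted by counts, was 2136 and 2026 bases in the wt and 2714, 2804 and 2576 bases in the null libraries. Across the 13240 genes tested, the median log2 fold change climbed with transcript length, from -0.54 for the 987 genes of up to 1000 bases to 1.45 for the 1338 genes over 6000 bases, against 0.29 for all genes. The 10 genes span this range: Bax is the shortest with 869 bases, and Cflar and Bcl2 are the longest with 6614 and 7019 bases. For this reason the fold changes below are given beside the value from a fit with length-dependent offsets, which bring the class medians to between 0.11 and 0.15. How much of a gene's own difference goes with this trend was not tested.

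**Figure D1:**
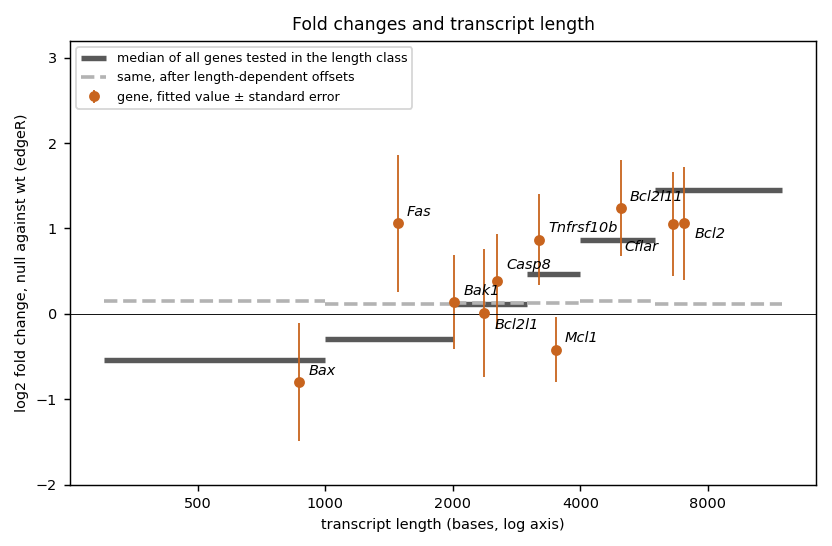
Fitted log2 fold change (null against wt, edgeR, y axis) of the 10 genes against transcript length in bases (log x axis). Points with bars are fitted values ± standard error, solid lines the median of all genes tested in a length class, and dashed lines the same medians after length-dependent offsets. Class medians climb from -0.54 to 1.45 with length, while Fas (1.06) sits above and Mcl1 (-0.42) below the medians of their classes.

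Over the 10 genes, 0 passed an adjusted p of 0.05 in edgeR's quasi-likelihood test, as did 0.0% of all genes tested in either direction, where no adjusted p was under 0.0845. Before adjustment, at p under 0.05, the same test passed 0 of the 10 genes, against 12.4% of all genes higher and 6.07% lower in null. DESeq2, which called 8.48% of its genes higher and 3.71% lower at an adjusted p under 0.05, also called 0 of the 10. By FPKM, 6 of the 10 genes (Fas, Tnfrsf10b, Casp8, Cflar, Mcl1 and Bcl2l11) had every null library above both wt libraries, beside 35.9% of all genes tested, and none had every null library below, beside 7.22%. With TMM-scaled CPM, groups that did not overlap were left for 3 genes: Tnfrsf10b and Bcl2l11 were higher in null (22.6% of all genes) and Mcl1 was lower (17.3%). The median log2 fold change of the 10 genes was 0.62, and 0.22 with length-dependent offsets, beside 0.29 and 0.13 over all genes tested.

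**Figure D2:**
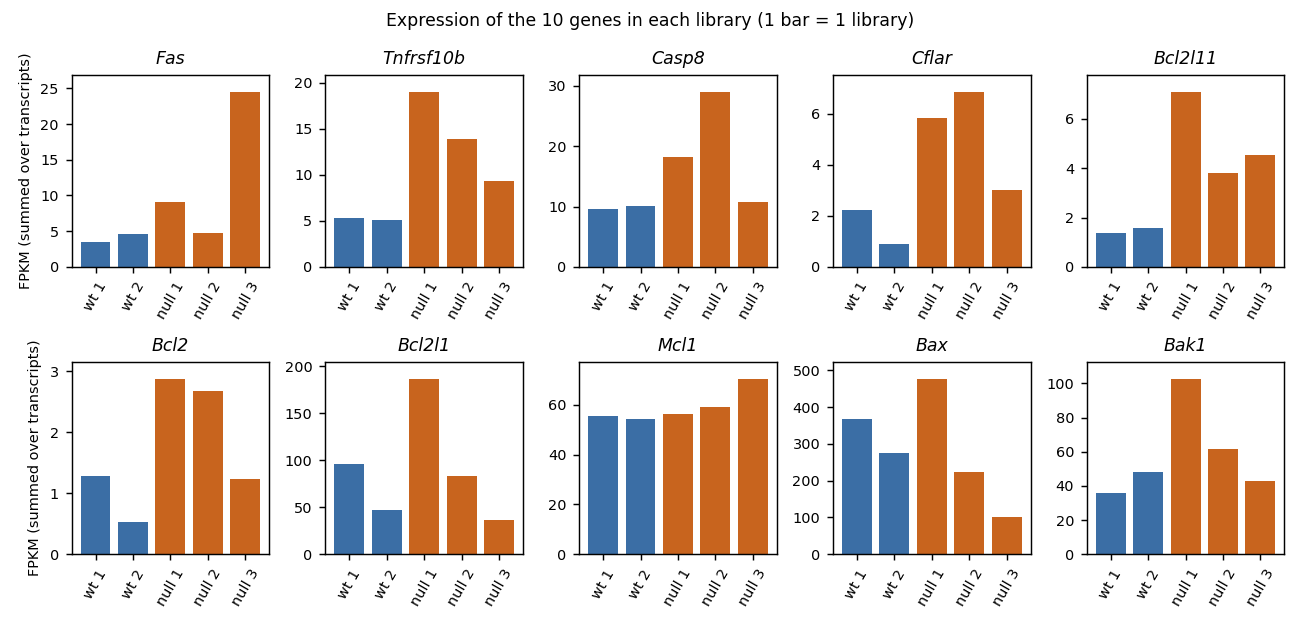
FPKM (y axis, each panel on its own scale from 0) of the 10 genes in the 2 wt (blue) and 3 null (orange) libraries, 1 bar per library with no error bar. Tnfrsf10b and Bcl2l11 are above both wt libraries in every null library, Mcl1 is nearly level, and in null replicate 3 Fas is at its highest and Bax at its lowest.

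Among the receptors, Fas, the receptor of Fas ligand, was measured at an FPKM of 3.49 and 4.67 in the wt and 9.14, 4.74 and 24.48 in the null libraries. Null replicate 3 was highest, 5.24 to 7.01 times the wt libraries, whereas null replicate 2 was level with wt replicate 2. The group means were 4.08 ± 0.834 (SD, n = 2) and 12.8 ± 10.4 (SD, n = 3), and the log2 fold change was 1.06 with a standard error of 0.80 (adjusted p = 0.495, edgeR quasi-likelihood, Benjamini-Hochberg). The offset fit gave 1.43 with a standard error of 0.77 (adjusted p = 0.458, same test), and leaving out null replicate 3 lowered the value to 0.18. The difference in Fas therefore rested on the line BVECTN_5. In the files Fas has a full-length transcript encoding 327 residues and a short one encoding 63. The full-length transcript made up the whole of Fas apart from an FPKM of 0.21 in wt replicate 1 and 0.08 in null replicate 3.

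Tnfrsf10b encodes the only death-domain receptor for TRAIL in the mouse. Its FPKM was 5.36 and 5.06 in the wt and 19.01, 13.91 and 9.32 in the null libraries. The wt libraries were close to each other and every null library was above them on both scales, by the most in replicate 1 and the least in replicate 3. Means were 5.21 ± 0.212 (SD, n = 2) and 14.1 ± 4.85 (SD, n = 3), and the log2 fold change was 0.87 with a standard error of 0.53 (adjusted p = 0.402, edgeR quasi-likelihood, Benjamini-Hochberg). With length-dependent offsets it was 0.63 with a standard error of 0.53 (adjusted p = 0.611, same test), and without null replicate 1, its highest library, it was 0.49. Together, the receptors summed to FPKM of 8.85 and 9.73 in the wt and 28.15, 18.65 and 33.8 in the null libraries. Their highest libraries differed, null replicate 3 for Fas and null replicate 1 for Tnfrsf10b. Tnfrsf10b FPKM was 1.54 and 1.08 times that of Fas in the wt libraries. The ratio was 2.08 and 2.93 in null replicates 1 and 2, and 0.381 in replicate 3.

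Casp8 encodes the initiator caspase that both receptors activate. It was measured at 9.57 and 10.15 FPKM in the wt and 18.19, 28.99 and 10.71 in the null libraries. Null replicate 2 was highest, and null replicate 3 was close to both wt libraries. The log2 fold change was 0.38 with a standard error of 0.55 (adjusted p = 0.732, edgeR quasi-likelihood, Benjamini-Hochberg), 0.39 with offsets, and -0.07 without null replicate 2. Both listed Casp8 transcripts encode 480 residues, and their split was uneven between lines. NM_001080126 took 36.3% and 13.5% of Casp8 FPKM in the wt and 1.32%, 30.2% and 46.2% in the null libraries. These shares are estimates of the authors' quantifier, for which the files give no error.

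Cflar encodes FLIP, which resembles caspase-8 and competes with it at the receptor. Its FPKM was 2.23 and 0.91 in the wt and 5.81, 6.84 and 3.02 in the null libraries. All null libraries were above both wt libraries by FPKM, while null replicate 3 lay between the wt libraries in TMM-scaled CPM. Means were 1.57 ± 0.933 (SD, n = 2) and 5.22 ± 1.98 (SD, n = 3), and the log2 fold change was 1.05 with a standard error of 0.61 (adjusted p = 0.392, edgeR quasi-likelihood, Benjamini-Hochberg). It was 0.54 without wt replicate 2. Its transcript is among the longest, and the offset fit turned the value to -0.08 with a standard error of 0.54 (adjusted p = 0.963, same test). So no direction can be given for Cflar beyond its length class, where the median was 1.45. Set against its partner, Casp8 FPKM was 4.29 and 11.2 times Cflar FPKM in the wt and 3.13, 4.24 and 3.55 times in the null libraries. The null lines lay close together on this ratio, and wt replicate 1 was nearly level with null replicate 2, so the groups were separated only narrowly. By estimated counts the ratio was 1.69 and 4.09 in the wt and 1.4, 1.75 and 1.53 in the null libraries, and the groups overlapped.

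Cflar yields a long form of 481 residues, with a caspase-like part that lacks the catalytic cysteine, and a short form of 215 residues that ends after the death effector domains. The coding sequences around the point where they part are shown, since the difference between the forms lies there. They were taken from GENCODE M21 on GRCm38, plus strand, in lower case where shared and in capitals where the forms differ. The short form reads on in the same exon at chr1:58732303-58732359, and the long form continues from chr1:58732303-58732326 to the next exon at chr1:58735658-58735690.
Cflar short: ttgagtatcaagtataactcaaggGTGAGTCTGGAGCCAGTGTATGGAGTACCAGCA
Cflar long: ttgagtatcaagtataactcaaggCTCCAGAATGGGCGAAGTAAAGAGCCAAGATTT
The short form was at an FPKM of 0.27 and 0 in the wt and 1.40, 1.20 and 0.72 in the null libraries. The long form was at 1.96 and 0.91 in the wt and 4.41, 5.64 and 2.30 in the null libraries, and was the larger part everywhere. By FPKM the short form took 12.1% and 0% of Cflar in the wt and 24.1%, 17.5% and 23.8% in the null libraries. By estimated counts, which are not divided by length, the shares were 3.89% and 0%, and 8.42%, 5.8% and 8.33%. The null shares were above the wt shares on both.

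**Figure D3:**
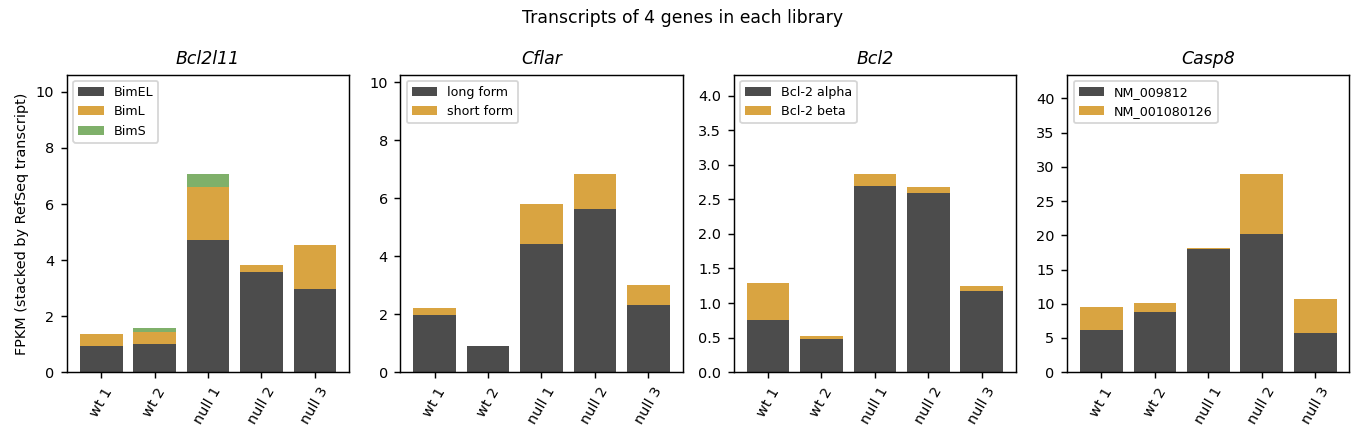
FPKM (y axis, each panel on its own scale from 0) of the RefSeq transcripts of Bcl2l11, Cflar, Bcl2 and Casp8, stacked per library for 2 wt and 3 null libraries, with no error bars. BimEL is the largest part of Bcl2l11 in every library, the short form of Cflar is not listed in wt replicate 2, and the split of Casp8 runs from 1.32% to 46.2% for NM_001080126.

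The BCL2 family genes share the BH3 motif, the short helix through which BH3-only proteins dock into the groove of the survival proteins. The motif was searched in the GENCODE M21 coding sequences, codon by codon, as a leucine, any 3 residues, a glycine and an aspartate, and each of the 6 family members had 1 match. The same simple pattern is found in 13.3% of the longest coding sequences of 21584 mouse genes, so a match alone does not mark a BH3 protein. The 48 bases around it are shown for all 6, since this is the element that a ligand such as Bim and its partners have in common. Capitals mark the codons of the conserved leucine and of the glycine and aspartate. Positions on GRCm38 are chr2:128147135-128147182 (Bcl2l11, plus strand, exon 3), chr7:45465991-45466038 (Bax, minus, exon 3), chr17:27022525-27022572 (Bak1, minus, exon 4), chr1:106712569-106712616 (Bcl2, minus, exon 1), chr2:152829691-152829738 (Bcl2l1, minus, exon 2) and chr3:95659421-95659468 (Mcl1, plus, exon 1), all coding.
Bcl2l11: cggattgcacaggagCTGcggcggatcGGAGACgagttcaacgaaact
Bax: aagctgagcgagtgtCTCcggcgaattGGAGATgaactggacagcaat
Bak1: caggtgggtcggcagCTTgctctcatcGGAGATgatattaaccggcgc
Bcl2: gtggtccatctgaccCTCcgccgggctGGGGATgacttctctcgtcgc
Bcl2l1: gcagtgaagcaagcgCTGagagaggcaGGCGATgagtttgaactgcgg
Mcl1: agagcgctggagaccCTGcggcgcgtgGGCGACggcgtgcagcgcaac
Of the 48 bases, 25 were identical to Bcl2l11 in Bax and in Bak1, 21 in Mcl1, and 20 in Bcl2 and in Bcl2l1. By bases, the pore formers therefore matched Bcl2l11 at more positions than the survival genes did. This count includes the codons that the search required, and codons can differ without a change of residue. It therefore gives no order of likeness to Bim as a protein.

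Bcl2l11 encodes Bim, a BH3-only protein that binds every survival protein of the family and can engage Bax and Bak. Its FPKM was 1.36 and 1.59 in the wt and 7.08, 3.82 and 4.53 in the null libraries. Each null library exceeded both wt libraries on both scales, and each was past 2-fold of both wt libraries by FPKM, but only null replicate 1 was so in TMM-scaled CPM. Means were 1.48 ± 0.163 (SD, n = 2) and 5.14 ± 1.71 (SD, n = 3). The log2 fold change was 1.24 with a standard error of 0.56 (unadjusted p = 0.0645, adjusted p = 0.292, edgeR quasi-likelihood, Benjamini-Hochberg). In its length class of 4000 to 6000 bases the median was 0.87, and the offset fit gave 0.49 with a standard error of 0.57 (adjusted p = 0.737, same test). Across the alternatives the value stayed between 0.49 and 1.75, and it was 0.83 without the epithelial null replicate 1 and 1.29 without null replicate 3.

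Bim is made in 3 main forms that differ by splicing. BimEL has 196 residues, BimL 140 and BimS 110. The stretches that set them apart lie next to each other in coding sequence on GRCm38, plus strand, and are shown because the forms differ in them: the first is in BimEL and not in BimL, and is known as the part that carries sites phosphorylated by ERK, the kinase downstream of BRAF. The second, which holds the dynein light chain binding part, is in BimEL and BimL and not in BimS. They lie at chr2:128128757-128128924 and chr2:128128925-128129014, and all their bases are in capitals, since the whole of each stretch is what distinguishes the forms.
BimEL stretch: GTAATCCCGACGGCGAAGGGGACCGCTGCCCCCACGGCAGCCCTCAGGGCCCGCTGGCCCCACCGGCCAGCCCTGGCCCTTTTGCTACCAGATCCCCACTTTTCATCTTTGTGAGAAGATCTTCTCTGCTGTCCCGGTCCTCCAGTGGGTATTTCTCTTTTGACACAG
BimL stretch: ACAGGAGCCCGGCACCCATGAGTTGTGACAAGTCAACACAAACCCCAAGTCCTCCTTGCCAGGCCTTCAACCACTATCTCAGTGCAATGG
BimEL was at an FPKM of 0.94 and 1.02 in the wt and 4.71, 3.58 and 2.98 in the null libraries, and took 69.1% and 64.2% of the gene in the wt and 66.5%, 93.7% and 65.8% in the null libraries. It was the main form everywhere, and its share was highest in null replicate 2. BimL was at 0.42 in both wt libraries and at 1.89, 0.24 and 1.55 in the null libraries. BimS, the shortest, was at 0.15 in wt replicate 2 and 0.48 in null replicate 1, and was not listed elsewhere. The higher level of Bcl2l11 in the null libraries was thus present in BimEL in every line and in BimL in replicates 1 and 3.

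Of the survival genes, Bcl2 had the lowest level. Bcl2 encodes the founding survival protein of the family, and its FPKM was 1.29 and 0.53 in the wt and 2.87, 2.68 and 1.24 in the null libraries. Null replicates 1 and 2 were above both wt libraries, and null replicate 3 lay between them. The log2 fold change was 1.06 with a standard error of 0.66 (adjusted p = 0.412, edgeR quasi-likelihood, Benjamini-Hochberg), and -0.13 with a standard error of 0.60 after length-dependent offsets (adjusted p = 0.942, same test). Bcl2, the longest transcript of the 10, thus had no direction that held on both fits, and its value was 0.64 without wt replicate 2. The alpha form, which carries the membrane anchor, was at 0.76 and 0.48 in the wt and 2.70, 2.59 and 1.17 in the null libraries. The beta form, of 199 in place of 236 residues, made up 41.1% of Bcl2 in wt replicate 1, 9.43% in wt replicate 2 and 5.92%, 3.36% and 5.65% in the null libraries by FPKM. By estimated counts these shares were 19.3% and 3.66% in the wt, and 2.19%, 1.17% and 1.92% in the null libraries.

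Bcl2l1, which encodes Bcl-xL, was measured at 95.54 and 47.24 FPKM in the wt and 186.04, 83.40 and 36.56 in the null libraries. Null replicate 1 was highest and null replicate 3 lowest of all 5, with the wt libraries inside that range. The log2 fold change was 0.01 with a standard error of 0.75 (adjusted p = 0.996, edgeR quasi-likelihood, Benjamini-Hochberg), 0.09 with offsets and -0.88 without null replicate 1. Mcl1, a survival gene whose protein is short-lived, was the steadiest of the 10 by FPKM, with 55.66 and 54.37 in the wt and 56.48, 59.19 and 70.29 in the null libraries. The null libraries lay above the wt libraries on this scale by a small margin, and below them in TMM-scaled CPM, where the wt libraries had 235 and 264, and the null ones 184, 171 and 205. The sign of its log2 fold change followed the scale, with -0.42 and a standard error of 0.38 (adjusted p = 0.57, edgeR quasi-likelihood, Benjamini-Hochberg) against 0.17 on log2(FPKM + 0.1), and was -0.77 with offsets. Among the survival genes the lead changed from library to library, also between the 2 libraries of the wt line. Bcl2l1 FPKM was 1.72 and 0.869 times that of Mcl1 in the wt and 3.29, 1.41 and 0.52 times in the null libraries.

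Bax and Bak1 encode the pore formers, either of which can open the mitochondria in many cells. Bax had the highest FPKM of the 10 genes in every library, with 368.33 and 276.14 in the wt and 475.30, 222.97 and 101.37 in the null libraries. Null replicate 1 was above both wt libraries, null replicates 2 and 3 were below both, and only null replicate 3, at 0.275 to 0.367 of the wt libraries, was past 2-fold. The log2 fold change was -0.80 with a standard error of 0.69 (adjusted p = 0.545, edgeR quasi-likelihood, Benjamini-Hochberg), -0.14 with offsets and -1.64 without null replicate 1. Bax is in the shortest length class, where the median of all genes was -0.54. Bak1 was measured at 35.87 and 48.44 FPKM in the wt and 102.43, 61.62 and 42.96 in the null libraries. Null replicate 3 lay between the wt libraries and the other two were above them, and the log2 fold change was 0.14 with a standard error of 0.55 (adjusted p = 0.908, same test and adjustment), 0.35 with offsets and -0.38 without null replicate 1. Bax FPKM was 10.3 and 5.7 times Bak1 FPKM in the wt, and 4.64, 3.62 and 2.36 times in the null libraries. By estimated counts the ratio was 4.32 and 2.4 in the wt and 1.95, 1.52 and 0.992 in the null libraries. The groups did not overlap on either scale, but the wt libraries lay further from each other than from the nearest null library. How often other pairs of genes separate in this way was not counted. Bax is the shorter of the pair, and the part of the length trend in this ratio was not tested.

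Ratios between the arms of the family were formed per library from summed FPKM, as a description with no test. Bcl2, Bcl2l1 and Mcl1 together were at 152.49 and 102.14 in the wt and 245.39, 145.27 and 108.09 in the null libraries, so that the groups overlapped. Bax and Bak1 together were at 404.2 and 324.58 in the wt and 577.73, 284.59 and 144.33 in the null libraries, and overlapped too. The survival sum divided by the pore former sum was 0.377 and 0.315 in the wt and 0.425, 0.51 and 0.749 in the null libraries. On this ratio each null library exceeded both wt libraries, by the most in replicate 3, where Bax was lowest. Bcl2l11 as a share of the survival sum was 0.892% and 1.56% in the wt and 2.89%, 2.63% and 4.19% in the null libraries, again with no overlap. By estimated counts, which are not divided by length, the survival to pore former ratio was 1.12 and 0.927 in the wt and 1.09, 1.36 and 1.99 in the null libraries, with null replicate 1 between the wt libraries. No direction can therefore be given for that ratio across scales. The Bcl2l11 share by estimated counts was 1.59% and 2.59% in the wt and 5.39%, 4.55% and 6.64% in the null libraries, without overlap as by FPKM. The part of the length trend in these ratios was not tested. These are amounts of RNA and not of protein.

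Set side by side within the wt group, per length, the levels ran from Bax through Bcl2l1, Mcl1 and Bak1 to Casp8, Tnfrsf10b, Fas, Cflar, Bcl2l11 and Bcl2. Mean FPKM was 322 ± 65.2 for Bax, 71.4 ± 34.2 for Bcl2l1, 55.0 ± 0.912 for Mcl1 and 42.2 ± 8.89 for Bak1 (SD, n = 2). Bcl2l1 exchanged places with Mcl1 and Bak1 between the wt libraries, and Cflar did so with Bcl2l11, so these neighbours did not differ beyond their spread. In the null group the means were 267 ± 191 for Bax, 102 ± 76.5 for Bcl2l1, 69.0 ± 30.4 for Bak1 and 62.0 ± 7.32 for Mcl1 (SD, n = 3), and the latter 3 overlapped. Casp8 followed with 19.3 ± 9.19, then Tnfrsf10b with 14.1 ± 4.85 and Fas with 12.8 ± 10.4, and these ranges overlapped as well. Cflar at 5.22 ± 1.98, Bcl2l11 at 5.14 ± 1.71 and Bcl2 at 2.26 ± 0.891 were the lowest in both groups.

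The null lines were also described 1 at a time, since each has its own line name and 1 library. By FPKM, null replicate 1 had 5 of the 10 genes past 2-fold above both wt libraries (Tnfrsf10b, Cflar, Bcl2, Bak1 and Bcl2l11), where 32.9% of all genes tested were so (10.8% lower), and null replicate 2 also had 5 (Tnfrsf10b, Casp8, Cflar, Bcl2 and Bcl2l11), where 35.5% were (9.93% lower). Null replicate 3 had 2, Fas and Bcl2l11, against 37.3% of all genes, and 1 below, Bax, against 7.55%. On TMM-scaled CPM the genes past 2-fold were 3 higher (Tnfrsf10b, Bcl2 and Bcl2l11) and 0 lower in replicate 1, beside 24.0% and 16.9% of all genes. Replicate 2 had 1 higher (Cflar) and 1 lower (Bax), beside 22.8% and 18.4%, and replicate 3 had 1 higher (Fas) and 2 lower (Bcl2l1 and Bax), beside 24.1% and 15.7%. All 3 comparisons share the same wt libraries, and each line has a single library, so no replicate check stands behind these counts. Within the wt line, the library with TSH was at 0.408 of the library without it for Cflar, 0.411 for Bcl2 and 0.494 for Bcl2l1, and between 0.75 and 1.35 of it for the others. Across all genes tested, 15.7% were at or past 2-fold lower and 8.21% higher in that comparison, which also has 1 library a side.

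**Figure D4:**
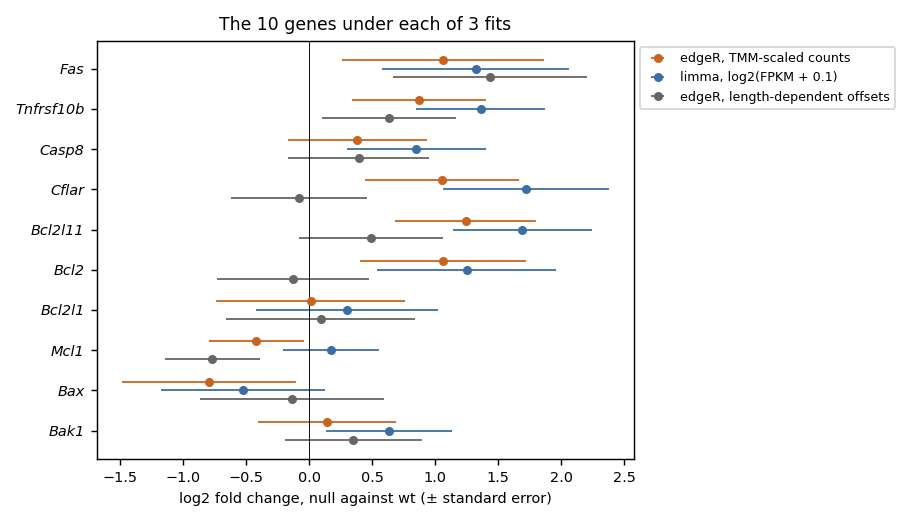
Log2 fold change (null against wt, x axis) of the 10 genes under 3 fits, as points ± standard error: edgeR on TMM-scaled counts (orange), limma on log2(FPKM + 0.1) (blue) and edgeR with length-dependent offsets (grey). Cflar and Bcl2 move from 1.05 and 1.06 to -0.08 and -0.13 with the offsets, while Fas, Tnfrsf10b and Bcl2l11 stay above 0 in all 3.

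On the FPKM scale, limma gave larger values for most of the genes, with a median over all genes of 0.61. Bcl2l11 was at 1.69 with a standard error of 0.55 (adjusted p = 0.157, limma, Benjamini-Hochberg). Tnfrsf10b was at 1.36 with a standard error of 0.51 (adjusted p = 0.189, limma), and Cflar at 1.72 with a standard error of 0.66 (adjusted p = 0.195, limma). These 3 of the 10 had an unadjusted p under 0.05 in limma, where 19.1% of all genes tested were so in that direction and 2.79% in the other. After adjustment 0 of the 10 passed, beside 0.00841% of all genes higher and 0.0421% lower. Differences on this scale are of log2(FPKM + 0.1), which understates those of low genes.

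Beyond the 10 genes, the pathway was followed through 85 other genes in 9 lists, from the ligands to the caspases' inhibitors. Of these, 81 were listed and 72 tested, and 0 passed an adjusted p of 0.05 by edgeR's quasi-likelihood test (lowest adjusted p = 0.18). At an unadjusted p under 0.05 in that test, 8 were higher in null (11.1%, beside 12.4% of all genes) and 3 lower (4.17%, beside 6.07%), so the pathway stood near the background in both directions. DESeq2 called 7 higher at an adjusted p under 0.05 (Ripk1, Pmaip1, Rock1, Birc6, Xiap, Icam1 and Igf2r) and 0 lower, beside 8.48% and 3.71% of all genes. With length-dependent offsets, 5 were higher and 2 lower at an unadjusted p under 0.05 (6.94% and 2.78%, beside 7.26% and 5.69% of all genes). The median log2 fold change of the 72 genes was 0.21, and 0.08 with offsets. Without null replicate 1 it was -0.32 over 68 genes, and on log2(FPKM + 0.1) it was 0.49 over 65 genes.

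**Figure D5:**
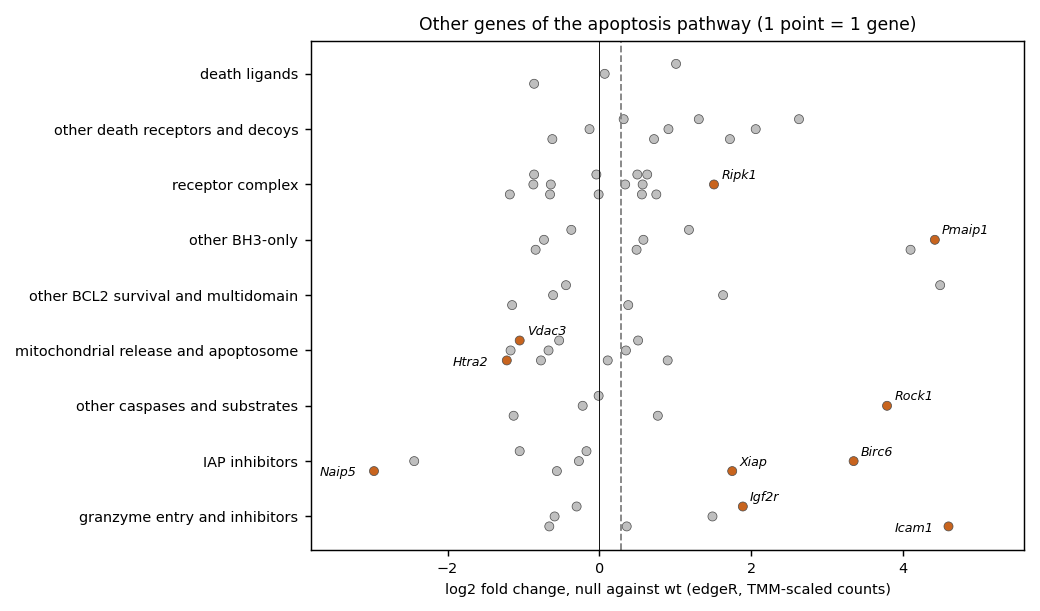
Log2 fold change (null against wt, edgeR, x axis) of 70 other pathway genes, by list (y axis), 1 point per gene with no error bar. Coloured and named points have an unadjusted p under 0.05, 7 above 0 and 3 below, and the dashed line is the median of all genes tested, 0.29.

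Of the death ligand genes, all but Tnfsf12 stayed under an FPKM of 1 in every library. Fasl had 1 estimated count in null replicate 1 and 0 elsewhere, and Tnf had 10 and 1 counts in null replicates 1 and 3. Of 7 ligand genes, 3 had enough counts to be tested, and Tnfsf12, which encodes TWEAK, led with FPKM of 4.30 and 6.95 in the wt and 32.57, 8.34 and 9.04 in the null libraries. Null replicate 1 stood out among them. The TRAIL gene Tnfsf10 stayed between 0.06 and 0.23 FPKM in every library. Of the other death receptors and decoys, 9 of 11 were tested, with a median log2 fold change of 0.91, or 0.86 with offsets, and 0 had an unadjusted p under 0.05 in edgeR's quasi-likelihood test. Without null replicate 1 that median was 0.19 over 7 genes, so that the library and the genes changed together. With all libraries and at least 10 counts in each, it was 0.75 over 7 genes. It was 0.65 without wt replicate 2 and without null replicate 2. The TNF receptor gene Tnfrsf1a was at 25.08 and 22.26 FPKM in the wt and 78.98, 28.24 and 65.29 in the null libraries, and the decoy TRAIL receptor gene Tnfrsf23 at 8.25 and 9.26, and 62.05, 15.44 and 16.66. Both were above the wt libraries in every null library by FPKM and overlapped in TMM-scaled CPM. The TWEAK receptor gene Tnfrsf12a was the most abundant of the list, at 469.29 and 228.49 in the wt and 550.72, 276.12 and 141.46 in the null libraries, with overlap.

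In the receptor complex, Ripk1, the kinase gene that turns TNF receptor signals toward survival or death, was at 1.72 and 1.79 FPKM in the wt and 6.46, 7.95 and 8.32 in the null libraries. The groups were well apart and the null lines close together. Its log2 fold change was 1.51 with a standard error of 0.47 (unadjusted p = 0.0154, adjusted p = 0.201, edgeR quasi-likelihood, Benjamini-Hochberg, and DESeq2 adjusted p = 0.0191). With offsets it was 0.86 (unadjusted p = 0.104, edgeR quasi-likelihood). Rbck1, of the linear ubiquitin complex, had the highest mean of this list over the libraries, with 88.52 and 93.84 in the wt and 100.34, 32.88 and 39.27 in the null libraries, overlapping by FPKM and lower without overlap in TMM-scaled CPM. The adaptor gene Fadd, which was chosen for naming after its values were seen, was at 9.20 and 5.64 in the wt and 10.36, 8.21 and 2.04 in the null libraries. All 14 genes of the list were tested, with a median log2 fold change of 0.17, or -0.27 with offsets. Without null replicate 1 the median was -0.59 and on log2(FPKM + 0.1) it was 0.39, so no direction can be given for the list.

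Among the other BH3-only genes, Pmaip1 encodes Noxa, which binds Mcl-1. It was at an FPKM of 0.64 and 0.31 in the wt and 19.41, 4.74 and 20.19 in the null libraries. Even the lowest null library, replicate 2, was far above both wt libraries. The log2 fold change was 4.42 with a standard error of 0.91 (unadjusted p = 0.00206, adjusted p = 0.18, edgeR quasi-likelihood, Benjamini-Hochberg, and DESeq2 adjusted p = 1.68e-05), and 4.39 with offsets, so that it hardly moved with the length correction. Bik, another BH3-only gene, was at 0.18 and 0 in the wt and 4.94, 0.15 and 1.32 in the null libraries, with overlap. The highest means over the libraries were those of Bnip3 with 29.10 and 55.39 in the wt and 16.87, 30.11 and 63.59 in the null libraries, and Bad with 27.19 and 33.86, and 63.45, 18.89 and 21.71. Both overlapped. Of the 8 BH3-only genes tested, Pmaip1 alone had an unadjusted p under 0.05, and the median was 0.53, or 0.38 with offsets. The median was 0.03 over 7 genes without null replicate 1, 0.15 over 7 genes without null replicate 3, 0.19 without wt replicate 2, and 1.06 on log2(FPKM + 0.1).

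Of the 10 other survival and multidomain members of the family, 7 were listed. Bcl2l10, Bcl2a1a and Bcl2a1d were in no library's list, and 6 of the 10 were tested, with a median log2 fold change of -0.03, or -0.28 with offsets and -0.62 over 5 genes without null replicate 1. Bok, a Bax-like gene, had the highest mean over the libraries, with 19.02 and 33.04 FPKM in the wt and 14.81, 17.08 and 22.05 in the null libraries, and was lower without overlap in TMM-scaled CPM. In null replicate 1 it was exceeded by Bcl2l15, at 40.37. Downstream at the mitochondria, all 10 genes were tested, with a median of -0.60, or -0.55 with offsets. On log2(FPKM + 0.1) the median was -0.08, and it was -0.90 without null replicate 2. Vdac3, an outer membrane channel gene, was at 275.69 and 246.42 in the wt and 136.56, 191.85 and 243.69 in the null libraries. Each null library was below both wt libraries, replicate 3 only just (log2 fold change -1.05, standard error 0.40, unadjusted p = 0.0368, adjusted p = 0.247, edgeR quasi-likelihood, Benjamini-Hochberg). With offsets it was -0.60 (unadjusted p = 0.183, same test). Htra2, a protease gene released from mitochondria, was at 104.34 and 64.38 in the wt and 74.81, 34.59 and 48.66 in the null libraries, and overlapped by FPKM. In TMM-scaled CPM its groups did not overlap, with 217 and 153 in the wt and 120, 49.3 and 69.8 in the null libraries. The fitted log2 value was -1.22 with a standard error of 0.51 (unadjusted p = 0.0494, adjusted p = 0.27, edgeR quasi-likelihood, Benjamini-Hochberg), and -0.92 with offsets (unadjusted p = 0.0983, same test).

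Further down the cascade, Casp6 was at 7.03 and 10.64 in the wt and 15.14, 15.18 and 39.32 in the null libraries. Casp6 encodes a downstream caspase that cleaves lamins, and its groups did not overlap by FPKM and overlapped in TMM-scaled CPM. Rock1, a kinase gene whose cleaved product causes membrane blebbing, was low, with 6 and 7 estimated counts in the wt and 71, 222 and 109 in the null libraries. Each null library exceeded both wt libraries for Rock1 on both scales.

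The inhibitor of apoptosis (IAP) genes lay on both sides of 0. Xiap, whose product binds and inhibits caspases, was at 1.12 and 0.96 FPKM in the wt and 4.66, 6.91 and 4.17 in the null libraries. The groups did not overlap, and the fitted log2 value of 1.75 (standard error 0.51, adjusted p = 0.192, edgeR quasi-likelihood, Benjamini-Hochberg, and DESeq2 adjusted p = 0.0143) became 0.63 with offsets (unadjusted p = 0.203, edgeR quasi-likelihood). Birc6, a very large IAP gene with a transcript of 15787 bases, was at 0.14 and 0.15 in the wt and 2.31, 3.14 and 1.32 in the null libraries, and its log2 fold change of 3.35 became 1.09. Naip5, chosen for naming after its values were seen, was low and below the wt libraries in every null library, with 87 and 71 counts in the wt and 4, 31 and 9 in the null libraries. Reads of Naip5 can be shared with its near-identical neighbours, so its counts are uncertain. Birc5, the survivin gene and a marker of dividing cells, was the most abundant, at 27.51 and 98.99 in the wt and 43.80, 105.51 and 53.46 in the null libraries. The list's median was -0.42 over 8 genes tested, and 0.27 over 6 genes on log2(FPKM + 0.1), so its sign turned with the scale. It was -0.73 without wt replicate 1 and -0.71 without null replicate 3.

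Genes for the entry and inhibition of granzymes, the other route of NK cell killing, were read as well. Serpinb9, whose product inhibits granzyme B in the mouse, was at 10.06 and 9.91 FPKM in the wt and 8.13, 13.13 and 8.69 in the null libraries (chosen for naming after its values were seen). Its groups overlapped by FPKM and were apart in TMM-scaled CPM, with 41.3 and 46.6 in the wt and 25.8, 36.9 and 24.6 in the null libraries. The fitted log2 value was -0.59 with a standard error of 0.44 (unadjusted p = 0.221, adjusted p = 0.486, edgeR quasi-likelihood, Benjamini-Hochberg), and -0.92 with offsets. Igf2r, the mannose 6-phosphate receptor gene that can take up granzyme B, was at 2.48 and 1.33 in the wt and 11.06, 13.95 and 6.07 in the null libraries. The groups did not overlap, and its fitted log2 value of 1.89 (standard error 0.56, adjusted p = 0.194, edgeR quasi-likelihood, Benjamini-Hochberg) became 0.36 with offsets (unadjusted p = 0.467, same test). Icam1, the adhesion molecule by which killer cells hold their targets, was at 0.42 and 0.53 in the wt and 43.94, 3.50 and 1.90 in the null libraries. It was far higher in null replicate 1 than elsewhere, with a log2 fold change of 4.60 and a standard error of 1.64 (adjusted p = 0.229, same test and adjustment), which the offsets left at 4.61. The most abundant of the list was Serpinb6a, with 130.82 and 166.97 in the wt and 301.53, 241.65 and 319.22 in the null libraries, above the wt group by FPKM and overlapping in TMM-scaled CPM.

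Genes that followed the same pattern over the 5 libraries were looked up for the 6 of the 10 genes whose FPKM spanned 4-fold or more. Likeness was the root mean square difference of mean-centred log2(FPKM + 0.1) among 7314 genes with a mean FPKM of at least 5. Nearest to Fas were Pla2g15 and Snhg18 (0.20 each), nearest to Cflar were Pprc1 (0.11) and Usp6nl (0.17), and nearest to Bcl2 were Pprc1 (0.16) and Pbp2 (0.18). Cflar and Bcl2 thus shared Pprc1 as their nearest gene. Bcl2l1 was nearest to Rhbdf2 and Ccdc86 (0.13 each), Bax to Zfp787 and Scrn2 (0.13 each), and Bcl2l11 to Chst14 and Eps15l1 (0.14 each). With 5 libraries, many of 7314 genes lie close to any pattern, and nothing is said here of shared function.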

How the data were processed

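TruSeq RNA libraries of 2 BVE-Ctnnb1wt and 3 BVE-Ctnnb1null samples were sequenced by the authors on an Illumina instrument. For each RefSeq transcript the authors deposited an estimated count and an FPKM value, listed from an FPKM of 0.01 upward. Aligner, counting program and genome build are not given in the sources used here. Estimated counts and FPKM were summed per NCBI gene number, the count sums were rounded, and symbols were taken from the RefSeq gene table (17866 of 17923 genes matched).

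All genes were fitted together with edgeR 4.0.16 in R 4.3.3 (TMM, filterByExpr by group, glmQLFit and glmQLFTest, no covariates), with Benjamini-Hochberg adjustment over 13240 genes and a threshold of 0.05. The biological coefficient of variation was 0.694. Alternatives were DESeq2 1.42.0, limma 3.58.1 on log2 of FPKM plus 0.1, 0.01 or 1 (FPKM of at least 0.5 in 2 libraries), upper quartile scaling, other count filters, leaving out each library, and the replicate number as a block. A fit with length-dependent offsets (lowess of log ratio on log transcript length, span 0.3) was added after seeing the data. Fits were tested on simulated data, from which no value is given here. An exact permutation test over the 10 splits of 5 libraries cannot go below p = 0.1, so none is given. Replicate numbers did not pair the libraries, which carry different line names. Group means are given ± SD. Standard errors of edgeR values were derived from the quasi-likelihood test, as the absolute log2 fold change divided by the square root of its F statistic. Python 3.11.15, pandas 2.3.3 and matplotlib 3.10.9 were used for sums, ratios and plots.

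The 10 genes and the gene lists were chosen with earlier results of these data known. Genes named from a list were the up to 3 with the highest mean FPKM and the up to 2 with the lowest unadjusted p, and silent ligand or cell type genes. Some of these are given only in counts over all lists, and 2 pathway genes are not reported here. Of genes outside that rule the text says that they were picked with their values in view, and this also holds for Cdh1, Krt7, Krt8, Dcn, Postn, Thy1 and Lum among the markers. Coding sequences and coordinates come from GENCODE M21 (GRCm38), matched through its RefSeq table. They show the reference and were not read from these libraries. Experiments in mice, cytotoxicity assays and overexpression clones were not analysed here.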

Additional observations from a re-analysis of the deposited data

How the results depend on the processing

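In none of the 14 alternatives did any of the 10 genes pass an adjusted p of 0.05 (lowest 0.12, Bax without null replicate 1). Fas, Tnfrsf10b and Bcl2l11 stayed above 0 in all of them (0.18 to 1.43, 0.49 to 1.37 and 0.49 to 1.75) and Bax below (-1.64 to -0.14). The median of all genes was itself above 0, at 0.29 in the main fit and 0.61 on log2(FPKM + 0.1). The lowest value of Fas was under the former, so a value above 0 alone does not set a gene apart. With 2 and 3 libraries, 1 line could decide a sign. When each library was left out, Casp8 lay between -0.07 (without null replicate 2) and 0.64, Bcl2l1 between -0.88 (without null replicate 1) and 0.38, and Bak1 between -0.38 (without null replicate 1) and 0.39. Cflar lay between 0.54 (without wt replicate 2) and 1.53, and Bcl2 between 0.64 (without wt replicate 2) and 1.38. Fas was at 0.70 without wt replicate 1, Casp8 at 0.15 without wt replicate 1 and Bax at -0.46 without null replicate 3. Bcl2l1 was also at -0.45 without wt replicate 2 and Bak1 at -0.23 without wt replicate 1. Bcl2l1 was at -0.07 with DESeq2, -0.08 with no filter on low counts and -0.04 with upper quartile factors. Mcl1 was at 0.17, 0.17 and 0.16 on log2 of FPKM plus 0.1, 0.01 and 1. With length-dependent offsets, chosen after seeing the data, Cflar was at -0.08 and Bcl2 at -0.13. Among all genes, those higher in null at an adjusted p under 0.05 numbered 0 in edgeR's quasi-likelihood test (1646 at an unadjusted p), 1113 in DESeq2 and 1 on each FPKM scale. Those lower numbered 0 (804 at an unadjusted p), 487 in DESeq2, 4 with no filter, 1 with at least 10 counts in every library, and 5, 3 and 7 on log2 of FPKM plus 0.1, 0.01 and 1. Both were 0 without each library, with upper quartile factors and with length-dependent offsets. The median log2 fold change of the other pathway genes, 0.21 over 72 genes, was 0.08 over the same 72 with offsets. Over the genes that passed each other filter, it was 0.08 with at least 10 counts (62 genes), 0.49, 0.50 and 0.48 on log2 of FPKM plus 0.1, 0.01 and 1 (65 genes), and between -0.32 (without null replicate 1, 68 genes) and 0.19 (without wt replicate 1 or 2, 72 genes) when each library was left out. The genes of the 10 past 2-fold of both wt libraries were 5 in null replicate 1 and 5 in null replicate 2 by FPKM, all higher, and 3 (all higher) and 2 (1 higher, 1 lower) in TMM-scaled CPM. The survival to pore former ratio of the lowest null minus the highest wt library was 0.048 by FPKM and -0.03 by estimated counts, a scale added after seeing the data. The causes were not tested.

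Replicates 1 and 2 share a number across groups but not a line, so the numbers were not read as pairs. Deviations from the group means correlated at -0.106 and -0.112. With 2 wt libraries their deviations mirror each other, so these correlations are not independent and cannot decide on pairing. With the replicate number as a block, 0 genes passed in either direction, the pathway median was 0.02, and Fas was at 0.18, the value without null replicate 3, which has no partner. Other values moved as well, with Casp8 at 0.67 and the median of the other death receptors and decoys at 0.60. The block changed no call.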
